A study of Mus musculus with 3 samples.

Results

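Cluster 21 of the iridocorneal angle and limbus, the ring of tissue in which aqueous humor leaves the eye, is a small population of smooth muscle-like mural cells. Its members are the cells that carry the label 21 in the cluster tables deposited by the authors, and they were found again by barcode in the count matrices. There were 431 of them among 26008 kept cells. Control 1 held 188 of them, control 2 held 174 and the *Angpt1*ΔNC library held 69.

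Both control libraries came from mice with the genotype *Angpt1* flox/flox, and the *Angpt1*ΔNC library came from *Angpt1* flox/flox;Wnt1Cre+ mice. All animals therefore carried the floxed allele, were of a mixed strain crossed for 2 generations to albino ICR mice, and were 6 weeks old. Tissue of 2 to 3 mice went into each library. Wnt1-Cre recombines in the neural crest lineage, so *Angpt1* was deleted in neural crest-derived cells and not in cells of other origin. With 2 control pools and 1 mutant pool, the spread between *Angpt1*ΔNC pools was not measured, and every test below assumes that it equals the spread between the controls.

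The median depth of cluster 21 was similar in the 3 libraries, while the shallowest cell held 1029, 1032 and 1817 UMIs. Its median cell held 4261.5 UMIs (unique molecular identifiers) in control 1, 4521.5 in control 2 and 4593 in *Angpt1*ΔNC, with 1625.5, 1677.5 and 1610 detected genes. The whole cluster held 822476, 790122 and 350252 UMIs. No barcode occurred in 2 libraries within the cluster, and 2 of its barcodes also occurred in another library. The pools were described as male and female, yet *Xist*, the transcript that silences one X chromosome in female cells, had no UMI in cluster 21 of either control. In *Angpt1*ΔNC it was found in 21 of 69 cells (30.4%, exact 95% CI 19.9 to 42.7), and 37 cells were typed as male by a Y-linked UMI without *Xist*. Sex and genotype thus differ together, and values of the 37 male-typed and the 20 female-typed mutant cells are given where a result could turn on them. In control 2, a single cell held 3056 of the 3068 hemoglobin UMIs of the cluster.

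Mural cells wrap the endothelial tube of blood vessels. Smooth muscle cells around arteries and arterioles contract through actin and smooth muscle myosin and set the vessel's diameter, whereas pericytes sit on capillaries, carry little contractile protein and share a basement membrane with the endothelium. Both are recruited and kept by endothelial PDGF-B and Notch signals, and angiopoietin 1 made by perivascular cells acts on the endothelial receptor TEK.

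The markers of smooth muscle were present in nearly every cell. *Myh11*, the smooth muscle myosin heavy chain (chr16:14194535-14291372, GRCm38), had a mean level of 14.3 UMIs per 10000 UMIs of the cell in control 1, 16.8 in control 2 and 7.44 in *Angpt1*ΔNC. In cluster 20, which holds pericytes, the same gene had levels of 0.709, 0.529 and 0.601. *Acta2*, smooth muscle actin (chr19:34241090-34255590), had levels of 112, 112 and 62.8 in cluster 21 and of 10.0, 5.22 and 7.65 in cluster 20. A cell with at least 1 UMI of both genes was the rule, at 94.1% of the cells of control 1 (CI 89.8 to 97.0), 95.4% in control 2 (CI 91.1 to 98.0) and 85.5%, or 59 of 69 cells, in the mutant library. As a background of free RNA, 2.12%, 1.78% and 1.10% of limbal and corneal epithelial cells (clusters 4 and 5) held a *Myh11* UMI, at median depths of 17717, 15168.5 and 15135 UMIs. For *Acta2* this background was 19%, 16.9% and 18%. All intervals and limits cover counting error only.

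Of 25 contractile genes, 24 were detected in at least 10% of the cluster 21 cells, and 5 of them were among the 10 genes with the highest ratio of the cluster over all other kept cells. Markers of other cell types were low or absent. The summed level of 12 endothelial markers was 2.62, 1.94 and 2.02 in the libraries, most of it from *Esam*, an adhesion molecule that mural cells also express. *Pecam1* had a UMI in 2, 1 and 0 cells, and *Tek* in none. The 8 glial markers summed to 0.113 to 0.185 and the 10 immune markers to 0.183 to 0.772, with *Ptprc*, which marks white blood cells, at 0. Epithelial markers summed to 2.07, 1.70 and 0.976.

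Serum response factor acts on smooth muscle genes through the CArG box, a motif of CC and GG around 6 letters that are A or T. The stretches that hold it in RefSeq promoter windows (GRCm38.p6, 250 bases before to 50 after a start site) are shown for 5 genes that carry one and were lower in *Angpt1*ΔNC, and for *Myl6*, a contractile gene that did not pass the test. Capitals mark the box, also where 1 of the 6 letters is a C or a G. The genes were picked for holding a box, and the share of lower genes that hold one was not measured.
*Acta2*, chr19:34255386-34255469, minus strand: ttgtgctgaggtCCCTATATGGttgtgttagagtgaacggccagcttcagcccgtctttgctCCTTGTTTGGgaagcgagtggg
*Myl9*, chr2:156775291-156775386, plus strand: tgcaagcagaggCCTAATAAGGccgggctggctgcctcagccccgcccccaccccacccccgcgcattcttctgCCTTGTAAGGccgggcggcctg
*Susd5*, chr9:114057148-114057181, plus strand: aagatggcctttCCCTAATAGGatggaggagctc
*Actg1*, chr11:120348564-120348597, minus strand: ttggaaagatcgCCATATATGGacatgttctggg
*Pcp4l1*, chr1:171196363-171196396, minus strand: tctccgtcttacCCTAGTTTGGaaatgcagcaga
*Myl6*, chr10:128493038-128493071, minus strand: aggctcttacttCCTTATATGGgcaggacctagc

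Of the genes shown, *Myl9*, *Actg1* and *Myl6* held an exact box. *Srf*, which is not shown and was not called, held one too. In *Acta2* both boxes have 1 changed letter and begin 84 and 34 bases before the start. Of 25 contractile genes, 19 had a window, and 5 of these (26.3%) held a box with at most 1 changed letter, namely *Acta2*, *Myl6*, *Myl9*, *Srf* and *Susd5*. Of all 27025 genes with a window, 11.3% did. With the exact box the shares were 15.8% of the contractile genes and 1.81% of all genes. The box is not particular to contractile genes. Of 22 immediate early genes with a window, 31.8% held it with at most 1 changed letter and 9.09% held it exactly. The search covered both strands, as the motif reads the same on each, and *Myh11*, *Tagln*, *Actg2*, *Map3k7cl* and *Myocd* were among those without a window.

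Since the cells were clustered on these genes, the levels of cluster 21 against other cells are a description without a test. The 3 genes with the highest ratio over all other kept cells were *Tesc*, *Map3k7cl* and *Myh11*. *Tesc*, a calcium-binding protein, had levels of 3.89, 3.83 and 3.24 in control 1, control 2 and *Angpt1*ΔNC, against 0.0206, 0.0182 and 0.0158 in all other cells. *Map3k7cl* had levels of 3.23, 2.95 and 1.52 in cluster 21 and of 0.0834, 0.0515 and 0.210 in cluster 20, while its mean over all other kept cells was at most 0.00756. Next came *Nrarp*, a feedback inhibitor of Notch signaling, *Gja4*, the gap junction protein connexin 37, *Filip1l*, *Myl9*, the regulatory myosin light chain, *Mustn1*, *Crip1* and *Ppp1r14a*, the inhibitor of myosin phosphatase. The ratios of these 7 genes over all other cells ran from 16.2 for *Nrarp* to 14.1 for *Ppp1r14a*, with 0.1 added to both levels. *Xirp1*, *Pcp4l1*, *Gm13861*, *Acta2* and *Rcan2* completed the first 15. The cluster therefore carried both the contractile apparatus and genes of the vessel wall, *Gja4* and *Nrarp* among them.

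Clusters 20 and 19, pericytes and smooth muscle, were compared with cluster 21, which shared different genes with each. Against the pericytes of cluster 20, the highest ratio was that of *Ptgis*, prostacyclin synthase, with levels of 3.74, 5.16 and 1.83 in cluster 21 and 0.0271, 0.0236 and 0.0909 in cluster 20. *Myh11*, *Map3k7cl*, *Tesc*, *Acta2*, *Xirp1*, *Cnn1* (calponin 1), *Fbxl22*, *Klf2* and *Tagln* (transgelin) followed. In the other direction, cluster 20 was higher in the chemokines *Ccl11*, *Cxcl2*, *Ccl2* and *Ccl7*, in *Spp1* (osteopontin), *Vtn* (vitronectin) and *Tfpi2*, and in *Col10a1*, *Emcn* and *Plac8*. *Ccl11* had levels of 40.1, 54.0 and 16.5 in cluster 20 and of 0.0242, 0.226 and 0.0641 in cluster 21.

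Cluster 19 is smooth muscle as well, with *Acta2* at 141, 127 and 113 and *Myh11* at 14.5, 14.4 and 13.8, close to the control levels of cluster 21. It held few transcripts of the vascular genes. *Gja4*, with levels of 25.7, 20.1 and 17.1 in cluster 21, was at 0.198, 0.181 and 0.0177 in cluster 19. *Procr*, the protein C receptor, had levels of 31.1, 17.0 and 31.6 against 0.361, 0.220 and 0.297. *Ebf1*, *Adamts4*, *Ndufa4l2*, *Apold1*, *Crip1*, *Akap12*, *Nrarp* and *Cxcl1* were the other 8 of the 10 highest ratios. Cluster 19 was instead higher in *Nog* (the BMP antagonist noggin, 8.68, 8.38 and 5.34 against 0.0886, 0.186 and 0.0301), *Sostdc1*, *Ctgf*, *Emb*, *Ctnnal1*, *Gpr137b*, *Rbp4*, *Itga8*, *Pfn2* and *Chodl*.

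**Figure D1:**
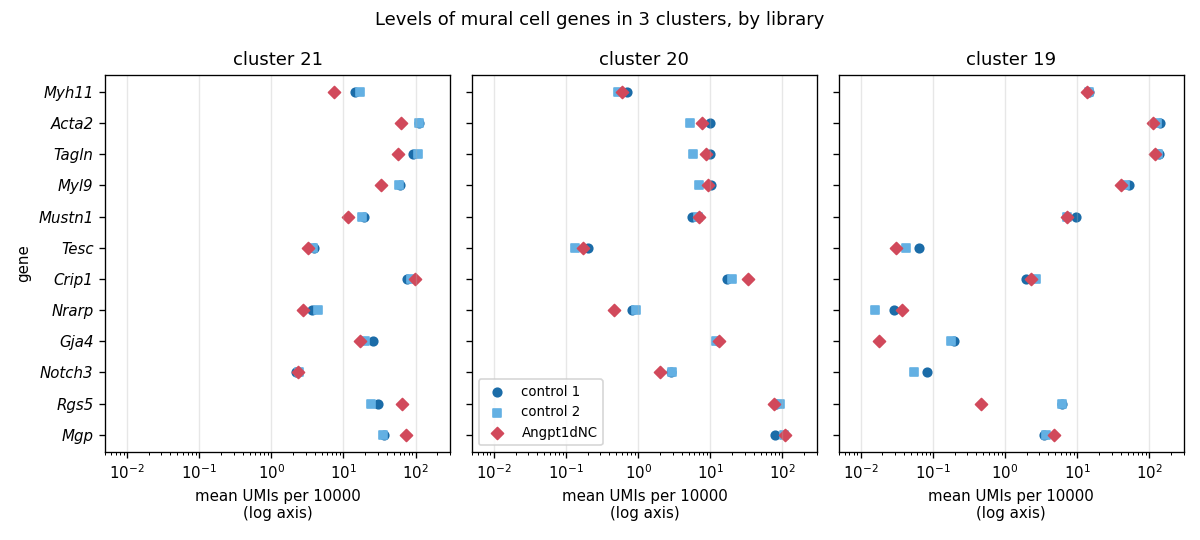
Mean level (UMIs per 10000, log axis) of 12 genes in clusters 21, 20 and 19, with 1 point for each library. Cluster 21 shares *Myh11*, *Acta2*, *Tagln* and *Myl9* with cluster 19 and *Gja4*, *Notch3* and *Rgs5* with cluster 20, while *Tesc* was high in cluster 21 in all 3 libraries; *Notch3* had no UMI in cluster 19 of *Angpt1*ΔNC and has no point there.

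Signaling genes of the vessel wall were present in cluster 21 in all 3 libraries. The receptor *Notch3* had levels of 2.22, 2.45 and 2.33, its ligand gene *Jag1* 1.81, 2.13 and 1.52, and the target *Heyl* 1.73, 1.5 and 2.05. *Pdgfrb*, the receptor through which PDGF-B recruits mural cells, had levels of 1.84, 1.82 and 1.68, and the ligand gene *Pdgfa* 14.9, 11.2 and 11.5. Among 40 receptors for vasoactive agents, those of highest mean level were *Ptgir*, the prostacyclin receptor (5.48, 4.64 and 4.38), the sphingosine-1-phosphate receptor *S1pr3* (1.94, 2.06 and 2.55), the endothelin receptor *Ednra* (1.75, 1.62 and 1.90), *Ramp1*, *P2rx1* and *Ednrb*. The nitric oxide receptor subunits *Gucy1a1* (2.49, 2.45 and 2.22) and *Gucy1b1* (1.5, 1.39 and 1.43) and the phosphodiesterase *Pde3a* (3.04, 3.28 and 2.73) were there as well. None of these genes except *Ednrb* passed the test between genotypes that is described below.

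Single cells of cluster 21 differed in how contractile they were. In control 1, the summed level of the 25 contractile genes had a median of 448 UMIs per 10000 and ran from 176 at the 10th percentile of cells to 694 at the 90th. In control 2 the median was 489.8 (230.4 to 726), and in *Angpt1*ΔNC it was 261 (165 to 490.0). The medians of cluster 20 were 62.8, 57.7 and 72.9. The summed level of 18 pericyte genes had medians of 58.9, 50.4 and 91.0 in cluster 21 and of 129.9, 141 and 119 in cluster 20. The *Angpt1*ΔNC cells of cluster 21 thus lay lower on the contractile axis and higher on the pericyte axis than the control cells. On the contractile axis the 10th percentile of mutant cluster 21 cells was 165 and the 90th percentile of mutant cluster 20 cells 162. On the pericyte axis the mutant cells of the clusters overlapped, with 33.9 to 199 between these percentiles in cluster 21 and 52.1 to 206 in cluster 20. The labels were set on these genes, so the distance between the clusters is a description.

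**Figure D2:**
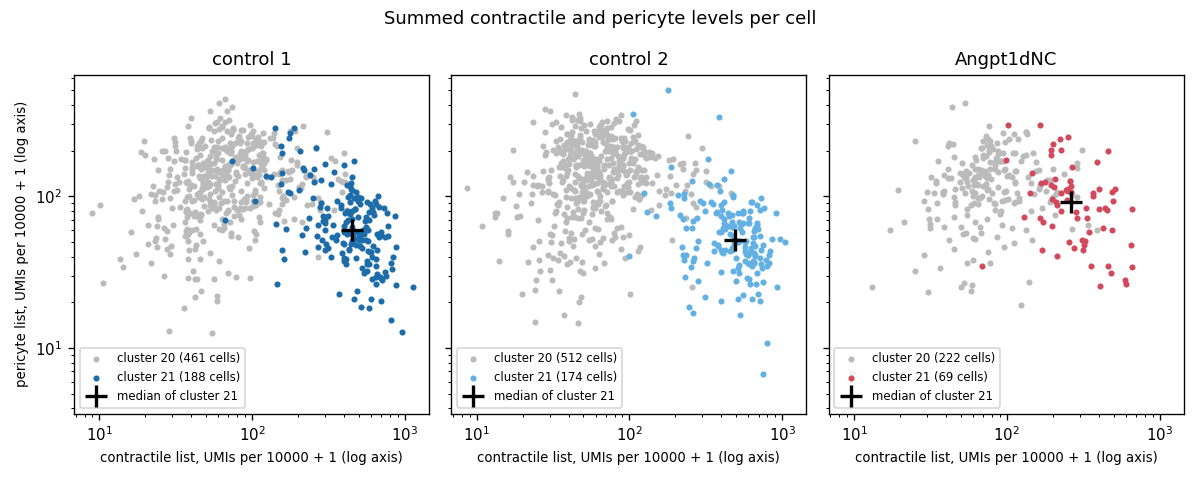
Summed level of the contractile list (x) and of the pericyte list (y) in each cell, as UMIs per 10000 plus 1 on log axes, for clusters 21 (colored) and 20 (gray) in each library, with a cross at the median of cluster 21. The median contractile level of cluster 21 was 448 and 489.8 in the controls and 261 in *Angpt1*ΔNC.

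The number of cluster 21 cells was compared between libraries. Out of all cells kept, they made up 2.07% in control 1 (CI 1.79 to 2.39), 1.71% in control 2 (CI 1.47 to 1.98) and 1.02% in *Angpt1*ΔNC (CI 0.794 to 1.29). The mutant share was 53.9% of the control mean, lower than both controls, which differed from each other by 1.21 times. Of clusters 19, 20 and 21 together, however, cluster 21 made up 18.1%, 14.7% and 20%. The mutant share was then 122% of the control mean, and the direction turned. The mutant counting interval (15.9 to 24.6) overlaps that of control 1 (15.8 to 20.6). Among all kept cells, cluster 19, which is part of that sum, was at 17.4% of its control mean share and cluster 20 at 64.8%. With 1 mutant library there is no test of a share, and fewer cells of this type cannot be told apart from a different yield of dissociation.

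**Figure D3:**
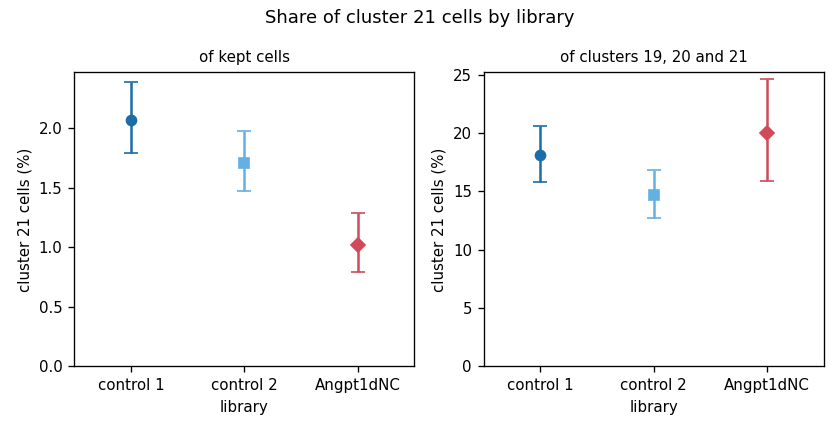
Cluster 21 cells as a percentage of all kept cells (left) and of clusters 19, 20 and 21 (right) in each library, with exact 95% intervals for counting error. *Angpt1*ΔNC is below both controls on the left (1.02% against 2.07% and 1.71%) and above both on the right (20% against 18.1% and 14.7%).

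*Angpt1*, the targeted gene (chr15:42424723-42676977), encodes the ligand that activates TEK. In cluster 21 it had 30 UMIs in 27 of 188 cells of control 1 (14.4%, CI 9.68 to 20.2), 10 UMIs in 9 of 174 cells of control 2 (5.17%, CI 2.39 to 9.59) and none in 69 cells of *Angpt1*ΔNC, where the limit that a count of 0 allows is 4.35% of cells with a UMI, which is not a limit on cells that express the gene. The epithelial background was 0.303%, 0.494% and 0%. *Angpt1* was called lower in *Angpt1*ΔNC (adjusted p = 0.00643, edgeR's quasi-likelihood test), and against a floor of 3 UMIs in the mutant library the controls were at least 2.87-fold higher, with bounds of 4.26-fold from control 1 alone and 1.48-fold from control 2 alone. The call was kept under 4 of 9 alternative fits. In cluster 20 the gene was found in 19.1% and 14.5% of control cells and in 0 of 222 mutant cells. Of the other genes of the pathway, *Angpt2* was sparse, with levels of 0.236, 0.364 and 0.496. The 10 pathway genes together summed to 9.73, 9.60 and 7.08. Among them, 3 were detected in at least 10% of the cluster 21 cells. Of the 10 genes 5 could be tested, and *Angpt1*, the targeted gene, alone passed. Over all genes tested, 4.48% were called higher and 3.73% lower.

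The comparison of *Angpt1*ΔNC with control cells asked how the transcripts of these mural cells differ when neural crest-derived *Angpt1* is missing. Counts were summed over the cluster 21 cells of each library. Of 6870 genes tested, 308 (4.48%) were higher and 256 (3.73%) lower in *Angpt1*ΔNC at an adjusted p under 0.05, and 200 and 204 of these changed by a log2 value of 1 or more. The size of the lists rests on how the spread is estimated. DESeq2, on the same sums, called 54 genes higher and 31 lower (2.18% and 1.25% of 2474 genes that had an adjusted p, 3.44% in all), and all 85 were also called by edgeR in the same direction. When the spread was estimated over clusters 19, 20 and 21 together, 183 were higher and 100 lower (1.97% and 1.08% of 9288 genes). In a cluster defined by its transcripts, a change of level per cell and a shift of the cells that the label takes in cannot be told apart.

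Contractile genes were lower in *Angpt1*ΔNC. Of the 25, all tested, 11 were called lower and none higher, against 3.73% and 4.48% of all genes, and their median log2 change was -0.63 against -0.04 over all genes. *Acta2* went from 112 and 112 UMIs per 10000 to 62.8 (log2 change -0.77, SE 0.13, adjusted p = 8.27e-07), and both the male-typed (59.7) and the female-typed (58.8) mutant cells lay below the controls. *Tagln*, which binds actin, went from 93.3 and 107 to 57.4 (log2 change -0.70, adjusted p = 1.93e-05). For both genes the call was lost when the spread was shared over the 3 clusters (adjusted p = 0.139 and 0.112) and with equal numbers of cells. *Myl9* had levels of 61.3 and 58.7 in the controls and of 33.4 in the mutant (log2 change -0.80, SE 0.15, adjusted p = 1.33e-05). *Myh11* was at 14.3, 16.8 and 7.44 (log2 change -0.93, SE 0.20, adjusted p = 1.93e-04), and its call was lost among male-typed cells alone, where its level was 8.43.

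*Cnn1* (1.20, 2.03 and 0.404), *Susd5* (1.08, 1.27 and 0.169), *Mustn1* (19.3, 18.1 and 11.6), *Ppp1r14a* (2.36, 3.40 and 1.36) and *Map3k7cl* (3.23, 2.95 and 1.52) were called lower too, beside *Pln*. *Pln*, phospholamban, which restrains calcium uptake into the sarcoplasmic reticulum, had a UMI in 20.7% and 18.4% of the control cells and in 1 of 69 mutant cells (1.45%, CI 0.0367 to 7.81). Other contractile genes did not pass. The essential light chain *Myl6* was at 51.9, 60.8 and 50.1, *Tpm1* at 24.0, 27.1 and 17.6 and *Tpm2* at 35.6, 46.3 and 34.2 (adjusted p = 0.687, 0.120 and 0.580). DESeq2 called 5 of the 25 lower, beside 1.25% of all genes, and the fit with shared spread 5, beside 1.08%. The fit on cells with UMIs of both *Myh11* and *Acta2* called 9. In cluster 20, 4 contractile genes were called higher and none lower, beside 3.46% and 4.21% of all genes tested there. In cluster 19, 1 was called higher and none lower, beside 0.493% and 0.473% of all genes.

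Genes outside the list that belong to the cytoskeleton or to smooth muscle were lower as well. *Actg1*, cytoplasmic gamma actin, was at 41.9 and 37.1 in the controls and 15.6 in *Angpt1*ΔNC (log2 change -1.33, adjusted p = 1.01e-11). *Pcp4l1* was at 9.02, 9.03 and 3.85, and *Ptgis* at 3.74, 5.16 and 1.83. *Rhob*, a small GTPase, was at 4.05, 3.63 and 1.41, and the myosin phosphatase subunit gene *Ppp1r12a* at 3.17, 4.32 and 2.04. Among channel and calcium handling genes, *Kcnma1*, the large conductance potassium channel that relaxes smooth muscle, was found in 22.9% and 27.6% of control cells and 7.25% of mutant cells and was called lower. *Prkg1*, the cGMP-dependent kinase through which nitric oxide relaxes muscle, was at 1.54, 1.46 and 0.743 (adjusted p = 0.0407, kept under 1 of 9 alternatives).

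Pericyte genes were partly higher. Of 18 genes, 13 were tested, and 5 were called higher and 1 lower, beside 4.48% and 3.73% of all genes. DESeq2 called 1 of them higher and none lower, beside 2.18% and 1.25% of all genes. *Rgs5*, a regulator of G protein signaling and a classical pericyte gene (chr1:169655501-169695813), was at 29.8, 24.1 and 64.1 UMIs per 10000 (log2 change 1.42, SE 0.15, adjusted p = 5.39e-18). It was at 59.5 in male-typed and 73.7 in female-typed mutant cells, and it was called under all 9 alternatives, DESeq2 included (adjusted p = 3.76e-07). Its median over cells was 14.2 and 13.3 in the controls and 49.9 in *Angpt1*ΔNC, below the cluster 20 medians of 71.1, 84.8 and 66.1. *Higd1b* was at 0.805, 0.926 and 2.04, *Ndufa4l2* at 3.57, 3.06 and 5.53, and *Abcc9*, the channel subunit that partners *Kcnj8*, was found in 2.13%, 1.15% and 14.5% of cells. *Steap4* was found in 1.60%, 0.575% and 14.5% of cells. *Cspg4* (NG2) went the other way, at 1.20, 1.86 and 0.597, while *Notch3* (adjusted p = 0.793), *Pdgfrb* (0.862) and *Gja4* (25.7, 20.1 and 17.1, adjusted p = 0.170) did not pass.

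Several genes of the extracellular matrix were higher. Of 44 genes, 35 were tested, and 9 were called higher and 1 lower, beside 4.48% and 3.73% of all genes. With the shared spread 6 were higher, beside 1.97% of all genes, and with DESeq2 2, beside 2.18%. *Mgp*, matrix Gla protein, an inhibitor of vessel calcification, was at 36.3, 35.5 and 73.2 (log2 change 1.11, SE 0.15, adjusted p = 5.22e-12), and *Sparc*, which binds collagen, at 9.59, 9.14 and 18.1 (log2 change 1.09, SE 0.19, adjusted p = 6.34e-07). These were the genes that DESeq2 called higher. Both were higher still in cluster 20, where *Mgp* was at 79.4, 105 and 107. Of the matrix list, 2 genes were called higher and 13 lower in cluster 20, beside 3.46% and 4.21% of all genes there. In cluster 19, 2 were called higher and none lower, beside 0.493% and 0.473%. The median *Sparc* level of single cells was 42.4, 43.0 and 37.9 in cluster 20 and 8.39, 7.69 and 14.3 in cluster 21. The basement membrane chains *Col4a1* (1.71, 2.1 and 3.08) and *Col4a2* (1.27, 1.31 and 2.49) were higher, as were *Col3a1*, *Col5a2*, *Col6a1*, *Col8a1* and *Tnc*, which all had levels under 3 in every library. *Sparcl1* was lower (22.1, 25.6 and 11.9, adjusted p = 9.52e-06), and *Igfbp7* did not pass (87.2, 85.9 and 78.0). The summed level of the fibroblast markers was 2.98, 4.40 and 4.33, with *Dcn* at 0.284, 0.680 and 0.458.

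Immediate early and dissociation genes were lower in *Angpt1*ΔNC, 13 of 24 tested, with none higher, beside 3.73% and 4.48% of all genes. *Klf2*, a transcription factor induced by flow (chr8:72319033-72321656), had the largest log2 change among them, from 6.65 and 6.60 to 0.676 (log2 change -2.92, SE 0.29, adjusted p = 4.44e-21). It had a UMI in 59.6%, 63.8% and 23.2% of the cells, against 9.61%, 7.61% and 9.66% of epithelial cells. *Fos* was at 12.7, 14.7 and 3.34, *Socs3*, which dampens cytokine signaling, at 10.8, 10.1 and 2.90, *Atf3* at 13.5, 16.0 and 5.89, and *Klf6* at 8.72, 8.69 and 3.9. All 5 were called by DESeq2. *Junb*, *Jund*, *Ier2*, *Fosb*, *Zfp36*, *Klf4*, *Cyr61* and *Hspa1b* completed the 13. The summed level of this list was 222, 237 and 139 in cluster 21 and 143, 123 and 106 in cluster 20. In cluster 19 it was 294, 250.3 and 194, so that it was lower in the mutant library each time. The list held 9 genes called lower and none higher in cluster 19, beside 0.473% and 0.493% of all genes there. In cluster 20 it held 4 lower and 1 higher, beside 4.21% and 3.46%. These genes also answer to dissociation, the 3 libraries were dissociated as separate pools, and their part in the lower contractile genes was not tested.

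Cytokine and interferon-stimulated genes were higher. Of 15 cytokine genes tested, 8 were called higher, and of 16 interferon-stimulated genes tested, 7, beside 4.48% of all genes. DESeq2 called 3 and 4 of them higher, beside 2.18% of all genes. The 8 include *Cxcl2*, whose log2 change was -1.47 among male-typed cells alone, and *Ccl7*, of which 1 cell held 20 of the 32 mutant UMIs. *Cxcl1*, a neutrophil chemokine, was at 7.34, 7.22 and 19.1 (log2 change 1.57, SE 0.19, adjusted p = 7.86e-14) and *Il6* at 4.26, 4.94 and 13.3 (log2 change 1.51, adjusted p = 2.95e-11). *Lif*, a cytokine of the same family, was at 1.12, 1.18 and 3.65. *Ccl2*, which draws monocytes, was at 2.03, 0.554 and 5.01, with a difference between the controls, and DESeq2 did not call it (adjusted p = 0.775). *Nfkbia*, an inhibitor of NF-kappa B, was lower (11.4, 11.1 and 5.77). In cluster 20, where these chemokines are high in the controls, 11 genes of the list were called lower and none higher. Of all genes tested there, 4.21% were called lower and 3.46% higher.

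Among the interferon-stimulated genes, *Isg15* was at 6.29, 5.70 and 15.6, *Ifitm3*, which blocks viral entry, at 21.9, 19.6 and 40.9, and *Rtp4* at 0.219, 0.273 and 1.80, each called under all 9 alternatives. *Ifit1*, *Ifit3*, *Cxcl10* and *Gbp3* were higher as well. The pericytes of cluster 20 held more of these transcripts in every library. The 21 genes of the list summed to 35.8, 32.1 and 68.6 in cluster 21 and to 132, 121 and 123 in cluster 20. *Iigp1*, an interferon-inducible GTPase, was at 0.346, 0.187 and 4.46 (log2 change 4.09, SE 0.28, adjusted p = 8.78e-46), in male-typed cells 4.22 and in female-typed cells 5.82. *Ifi203* was at 0.311, 0.461 and 3.72. *Irf1*, a transcription factor of the same response, was lower (2.01, 1.87 and 0.409, adjusted p = 5.92e-08). The summed level of the 10 immune cell markers was 0.183, 0.530 and 0.772, highest in the mutant library, with *Ptprc*, *Cd52* and *Cd3e* at 0. Its part in the higher cytokine and interferon genes was not tested.

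**Figure D4:**
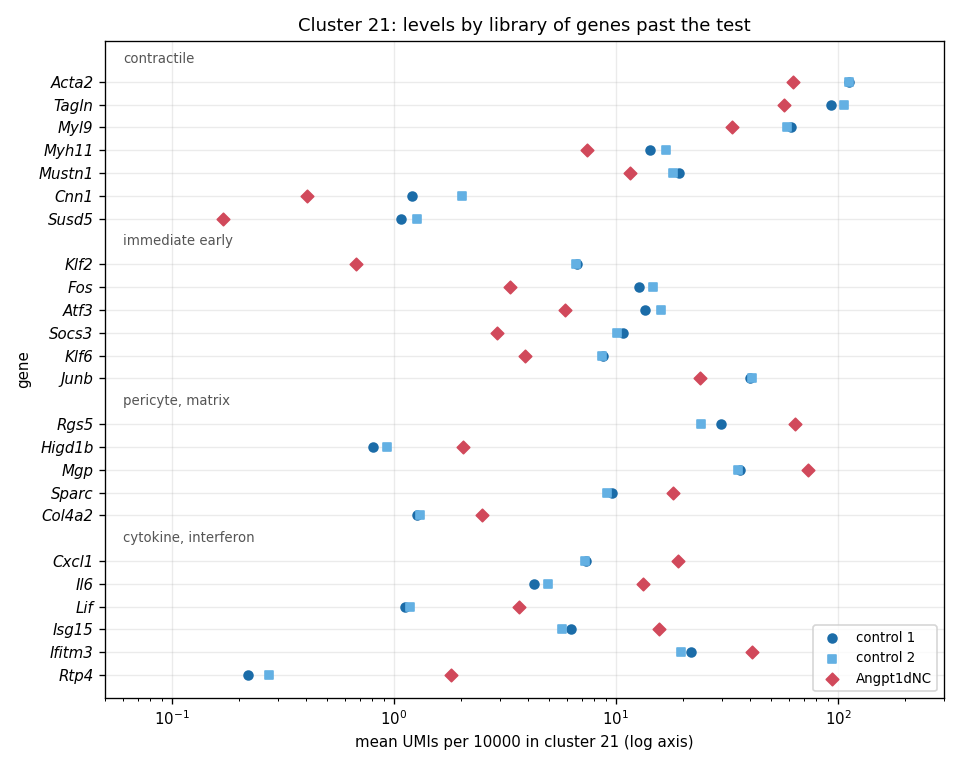
Mean level in cluster 21 (UMIs per 10000, log axis) in control 1, control 2 and *Angpt1*ΔNC for genes past the test, grouped by list. The controls lie close together for most genes, with the contractile and immediate early genes lower and the pericyte, matrix, cytokine and interferon genes higher in *Angpt1*ΔNC (*Acta2* 112, 112 and 62.8, *Rgs5* 29.8, 24.1 and 64.1).

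Transcription factors and receptors changed singly. *Foxs1*, a forkhead factor of vessel mural cells, was at 4.91, 4.79 and 1.86 (log2 change -1.39, SE 0.26, adjusted p = 7.15e-06), while *Tbx3* was at 2.01, 1.73 and 3.50 and *Nr2f1* at 1.31, 1.24 and 1.99, both called higher. *Ebf1* (5.94, 6.50 and 7.45) and *Foxc2* (4.04, 3.84 and 2.56) did not pass. *Hes1*, a Notch target, was higher at 2.46, 2.12 and 4.26 (adjusted p = 0.00195). It alone passed of 9 tested Notch genes, beside 4.48% of all genes called higher and 3.73% called lower. *Nrarp*, another Notch target, was at 3.64, 4.43 and 2.75 (adjusted p = 0.281). *Ednrb*, an endothelin receptor, was at 0.579, 0.325 and 1.19 (adjusted p = 5.07e-06). *Calcrl*, part of the receptors for CGRP and adrenomedullin, had 27 and 23 UMIs in the controls and none in *Angpt1*ΔNC, which makes the controls at least 3.62-fold higher.

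The genes with the smallest adjusted p outside these lists were of several kinds. *Xist* had 126 UMIs in *Angpt1*ΔNC and none in the controls, at least 94.7-fold higher. *Mt1*, metallothionein 1, which binds zinc and other metals, was at 49.1, 49.6 and 154 (log2 change 1.66, SE 0.13, adjusted p = 4.4e-34). *S100a4*, a calcium-binding protein, was at 0.724, 1.02 and 6.10, the neuropeptide gene *Cartpt* at 2.24, 1.66 and 11.0, *Stc1* (stanniocalcin 1) at 0.443, 0.234 and 2.53, and *Sash1* at 0.586, 0.463 and 2.82. Lower were *Penk*, the proenkephalin gene (3.27, 4.55 and 0.532), *Tmem51* (2.97, 2.01 and 0.495), and the predicted genes *Gm42418* (49.4, 33.6 and 12.9) and *Gm10260*, with 197 and 217 UMIs in the controls and none in *Angpt1*ΔNC, where the controls were at least 30-fold higher. *Gm10260* and *Gm42418* were called lower in clusters 20 and 19 too, and *Xist* higher in both. In cluster 20, *Mt1*, *S100a4* (log2 change 2.20), *Cartpt* (2.15), *Stc1* (1.41) and *Sash1* (0.79) were also called higher. *Penk* (-2.57) and *Tmem51* (-0.87) were called lower there. The changes of *S100a4*, *Cartpt*, *Stc1*, *Penk*, *Tmem51* and *Gm10260* did not pass the test of a difference between clusters described below. For *Cartpt* (log2 difference 3.88, SE 1.62), *Stc1* (3.49, SE 1.94) and *Gm10260* (-5.17, SE 3.93) the standard errors were wide. That test therefore cannot show that their changes were alike. *Cartpt* and *Stc1* had levels of 22.7 and 5.49 in female-typed and of 8 and 1.64 in male-typed mutant cells, all above the controls.

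For 11 called genes, a single cell held over 50% of the UMIs of the library with the highest level. All 106 *Nts* UMIs of *Angpt1*ΔNC were in 1 cell, and 1995 of 2002 *Hbb-bs* and 918 of 922 *Hba-a1* UMIs of control 2 were in 1 cell. Without that control cell, *Hbb-bs* and *Hba-a1* were no longer called. *Hbb-bt*, *Ccl7*, *Cd14*, *Cited1*, *Ptx3*, *Slpi* and *Sostdc1* were among the others. Apart from the hemoglobin genes, these genes were not tested again without that cell.

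Whether these changes differed from those in clusters 19 and 20 was tested in 1 fit over the 9 sums of 3 libraries and 3 clusters. The log2 change in cluster 21 was above the mean change in clusters 19 and 20 for 78 of 9288 genes (0.840%) and below it for 30 (0.323%). Set against cluster 20 alone, the numbers were 159 and 82 of 8010 genes (1.99% and 1.02%). Cluster 19 held 54 mutant cells, of which 94.4% had an *Xist* UMI, against 30.4% in cluster 21 and 51.8% in cluster 20, so the sex of the mutant cells differed between the clusters as well, and its part in the differences was not tested.

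*Rgs5* had the smallest adjusted p among the higher genes, with a difference of 3.15 (log2, SE 0.18, adjusted p = 1.93e-10). It rose in cluster 21, stood at 82.1, 92.3 and 75.1 in cluster 20 (adjusted p = 0.741) and fell in cluster 19 from 6.21 and 6.13 to 0.466. *Ccl2* differed by 3.55, with levels of 88.4, 57.3 and 24.8 in cluster 20, and *Cxcl1* by 2.67, with 101, 99.0 and 74.0 there. *Iigp1* differed by 3.89, and its levels in cluster 20 were 7.14, 8.58 and 10.8. *Mt1* differed by 1.12, and it was also called higher in cluster 20 (80.1, 76.4 and 155). *Il6*, *Sparc*, *Mgp*, *Ifitm3* and *Rtp4* passed this test too (adjusted p = 2.60e-05, 9.64e-05, 0.0125, 8.40e-05 and 0.00412).

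Among the genes whose change in cluster 21 was below that in the other clusters, *Pcp4l1* differed by -2.09 (adjusted p = 1.07e-06). It fell in cluster 21 and was called higher in cluster 20 (0.598, 0.799 and 1.80). *Ptgis* differed by -2.47 and stayed at 5.60, 5.92 and 5.70 in cluster 19. *Foxs1* differed by -1.57 and *Actg1* by -1.04. Of the contractile list, 5 genes had a change in cluster 21 below that in the other clusters at an adjusted p under 0.05, beside 0.323% of all genes. *Myh11* (adjusted p = 0.0148), *Myl9* (0.0107), *Tpm2* (0.00228) and *Des* (0.0103) were among them. *Tpm2* and *Des* did not pass as lower within cluster 21 (adjusted p = 0.580 and 0.480). *Acta2* (adjusted p = 0.0816) and *Tagln* (0.0811) did not pass. *Klf2* and *Fos*, which were lower in both other clusters as well, did not differ at this threshold (adjusted p = 0.362 and 0.0610).

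**Figure D5:**
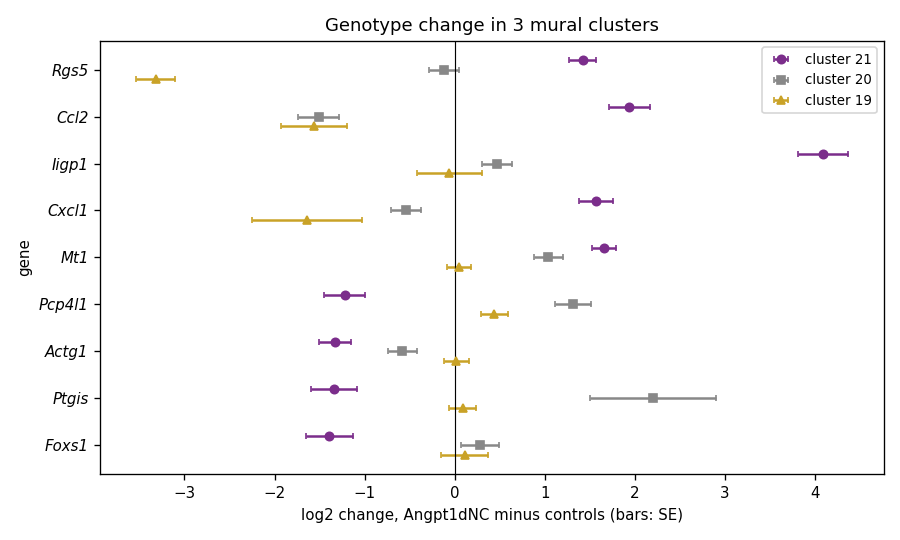
Log2 change (*Angpt1*ΔNC minus controls, bars show the SE of the fit) in clusters 21, 20 and 19 for 9 of the genes with the smallest adjusted p in the test of the difference between clusters (*Rgs5* to *Mt1* higher, *Pcp4l1* to *Foxs1* lower in cluster 21). *Rgs5* changed by 1.42 in cluster 21 and by -3.32 in cluster 19, and *Pcp4l1* by -1.22 in cluster 21 and 1.31 in cluster 20.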

How the data were processed

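Droplet libraries of the iridocorneal angle and limbus (10x Genomics, 2 control and 1 *Angpt1*ΔNC) were used. The authors made the deposited values, raw UMI counts of 31053 genes in every called cell, with Cell Ranger (version 2.1.1 per the submitters' processing notes, while the deposited matrix headers read 3.0.2), and clustered cells of at least 200 genes, at least 1000 UMIs and at most 10% mitochondrial UMIs with Seurat 3.1.3, on build mm10, after doublet removal. The deposited tables label each kept cell with 1 of 35 names, and their integrated values were not used. Integration can move cells between neighboring clusters, which then changes the levels in each.

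A level is the average over a cluster's cells of the UMIs per 10000 UMIs of the cell. For shares, 95% intervals were computed by the exact method of Clopper and Pearson. Counts were summed per library and cluster and tested with edgeR 4.0.16 (TMM factors, filterByExpr, quasi-likelihood fit, with p-values adjusted after Benjamini and Hochberg and called under 0.05). The genotype fit has 1 residual degree of freedom, the fit of cluster differences has 2, with library as a term, and both were tested on simulated data. DESeq2 1.42.0 was an alternative. Named are the 15 genes with the highest ratio over all other cells and 10 each way against clusters 20 and 19 (0.1 added, detected in at least 25% of cells), the 10 genes with the smallest adjusted p in each direction at a log2 change of at least 1, the 5 in each direction of the cluster difference, and of 29 lists the called members and those of highest level. *Pecam1*, *Tek*, *Ptprc* and genes held by 1 cell were named after their values were seen. Some genes that these rules name are not reported here. The members and lists were chosen with earlier results of these data known. Gene positions are from GENCODE M21, in which 30934 gene identifiers were found, promoters from RefSeq. Python 3.11.15, scipy 1.17.1 and matplotlib 3.10.9 were used.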

Additional observations from a re-analysis of the deposited data

Results flagged for a closer look

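For 9 genes the change between genotypes in cluster 21 differed from the mean change in clusters 19 and 20 by the test of that difference (edgeR's quasi-likelihood test, smallest adjusted p in each direction). On the log2 scale the differences were 3.15 for *Rgs5*, 3.55 for *Ccl2*, 3.89 for *Iigp1*, 2.67 for *Cxcl1* and 1.12 for *Mt1*. They were -2.09 for *Pcp4l1*, -1.04 for *Actg1*, -2.47 for *Ptgis* and -1.57 for *Foxs1*. The clusters did not always change in the same direction. *Ccl2* changed by 1.94 in cluster 21, -1.51 in cluster 20 and -1.56 in cluster 19, and *Rgs5* by 1.42, -0.12 and -3.32. In cluster 20, *Mt1* rose too (1.04) and *Actg1* fell too (-0.58). Groups of 2 libraries and 1 library are too small for a search for outlying samples.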

How the results depend on the processing

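No paired analysis was possible, since the replicate numbers only count the pools and the labels pair no control with the mutant. The counts of genes called between genotypes in cluster 21 (308 higher, 256 lower) became 54 and 31 with the DESeq2 Wald test, 113 and 73 with equal numbers of cells, 183 and 100 with the spread shared over the 3 clusters, and 159 and 128 with male-typed cells alone. They stayed within 1.5 times under 5 alternatives (DESeq2 size factors, no filter on low counts, without deep cells and, both chosen after seeing the data, without the cell of most hemoglobin UMIs and on cells with *Myh11* and *Acta2* UMIs). The 11 lower contractile genes became 5 with DESeq2, 3 with equal numbers of cells and 5 with the shared spread, the 13 lower immediate early genes 6, 7 and 8, and the 7 higher interferon-stimulated genes 4 with DESeq2. For the difference between clusters (78 higher, 30 lower) the counts were 159 and 82 against cluster 20 alone, 120 and 50 without a filter, and 49 lower against cluster 19 alone. The mutant share of cluster 21, 53.9% of the control mean, reversed to 122% as a share of clusters 19, 20 and 21 and ran from 49.2% to 59.5% against single controls. Cells with a *Myh11* UMI went from 94.8% to 87.4% of control cells when thinned to 2000 UMIs. The fold of cluster 21 over cluster 20 ran from 20.2 to 31.8 for *Myh11* and from 11.2 to 21.5 for *Acta2* against single controls. *Cxcl2* reversed among male-typed cells (log2 change -1.47), with levels of 0.0893 in male-typed and 2.18 in female-typed mutant cells. Of 94 named genes followed over the alternatives, 41 were also called with DESeq2, 63 with the shared spread and 62 among male-typed cells. The causes were not tested, beyond the fewer cells and genes of some alternatives. At a median of 4593 UMIs in 69 mutant cells, a gene of low level is missed in most cells.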
